A study of Mus musculus with 8 samples.

Results

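The genes described here are 10 members of the bone morphogenetic protein (BMP) pathway: the ligand genes Bmp2, Bmp4, Bmp5, Bmp6, Bmp7 and Bmp10, and the receptor genes Bmpr1a, Bmpr2, Acvr1 and Acvrl1. They were chosen by symbol, and all 10 were found among the 22869 symbols of the count table and passed the filter on low counts, which kept 14940 symbols for testing. Total RNA was sequenced from atrioventricular (AV) cushions, the swellings of the AV canal that give rise to valves and septa, and from ventricles, of E12.5 mouse embryos on a C57BL/6 background. The 8 libraries formed 4 groups of 2: mutant cushion, wild type cushion, mutant ventricle and wild type ventricle. Mutants carry the genotype label NfatC1+/-; KLF2fl/fl and controls the label wild type, while the design text names controls with floxed Klf2. What the Nfatc1 allele does is not labelled (a lost copy or a recombinase driver), the cells in which Klf2 was deleted are not stated, and effects of the 2 loci cannot be told apart. Whether both libraries of a group are from different embryos is not stated either, and the p-values then reflect a spread that may be technical only.

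BMP ligands are secreted dimers that bring together a type I receptor, such as the products of Bmpr1a, Acvr1 and Acvrl1, and a type II receptor, such as the product of Bmpr2. The complex phosphorylates SMAD proteins, which enter the nucleus with SMAD4 and switch on genes such as those of the Id and Msx families. In the mouse heart, BMP2 from AV canal myocardium is known to induce endocardial cells to form cushion mesenchyme, and BMP10 is known for sustaining growth of trabecular myocardium.

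Promoter sequences in the RefSeq table of build GRCm38.p6 were matched by symbol for 7 of the 10 genes. Those of Bmp4, Bmp6 and Bmp10, whose RNA differed between tissues, and of Bmp5, whose RNA differed less, are shown because Klf2 encodes a factor of the family that binds CACCC boxes. Each is the 250 bases before the annotated start, on the strand of the gene. Capitals mark matches, on either strand, to CACCC, to the GATA factor motif GATAA, or to CACACC, a core shared by T-box factor sites. CACACC can overlap CACCC when a further C follows. The last 2 motifs were chosen after the sequences were seen.
Bmp4 (chr14:46390670-46390919, minus strand): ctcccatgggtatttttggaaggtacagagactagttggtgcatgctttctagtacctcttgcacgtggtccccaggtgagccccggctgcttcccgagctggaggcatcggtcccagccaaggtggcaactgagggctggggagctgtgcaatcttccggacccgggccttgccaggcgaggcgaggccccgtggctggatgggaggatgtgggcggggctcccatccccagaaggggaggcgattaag
Bmp5 (chr9:75775115-75775364, plus strand): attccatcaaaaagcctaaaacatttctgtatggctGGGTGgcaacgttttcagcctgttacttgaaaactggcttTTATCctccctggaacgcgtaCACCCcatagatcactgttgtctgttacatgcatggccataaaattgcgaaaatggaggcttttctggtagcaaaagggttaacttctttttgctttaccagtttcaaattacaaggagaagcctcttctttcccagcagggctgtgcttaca
Bmp6 (chr13:38345466-38345715, plus strand): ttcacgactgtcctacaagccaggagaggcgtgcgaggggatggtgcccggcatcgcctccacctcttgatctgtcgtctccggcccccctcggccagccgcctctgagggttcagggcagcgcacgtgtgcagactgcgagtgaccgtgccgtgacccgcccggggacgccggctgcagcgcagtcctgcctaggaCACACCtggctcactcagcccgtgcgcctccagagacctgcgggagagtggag
Bmp10 (chr6:87428744-87428993, plus strand): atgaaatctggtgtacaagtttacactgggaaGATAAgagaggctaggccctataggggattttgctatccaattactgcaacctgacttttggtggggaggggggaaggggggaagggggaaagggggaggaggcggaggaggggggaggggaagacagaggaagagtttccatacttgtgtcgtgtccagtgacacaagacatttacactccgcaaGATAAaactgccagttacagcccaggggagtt

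CACCC was found 2 times in the Bmp5 window, 1 time each in the windows of Bmpr1a and Acvr1, and in none of the Bmp4, Bmp6, Bmp10 and Bmpr2 windows, and 52.0% of the 32851 windows in the table hold it. The Bmp10 window held GATAA at positions -218 and -32 from the start and the Bmp5 window its reverse complement at -174, where 22.6% of all windows hold the motif. Bmp6 had CACACC at -53, a motif in 16.3% of all windows. GGCGCC, a GC-rich sequence that BMP-activated SMAD proteins are known to bind, was searched as well and lay in the Bmpr1a and Bmpr2 windows, against 9.59% of all windows. A match is a stretch of letters in a short window and says nothing of binding.

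Library totals, with 1 row kept per symbol, lay between 18955733 and 26579215 counts. Levels are given as CPM, the usual count scaled to the effective size of its library, and 1 CPM corresponded to at least 18.7 reads. Klf2 was at 1.96 and 0.651 CPM in mutant cushions against 17.3 and 12.9 CPM in wild type cushions, and at 0.735 and 0.625 CPM in mutant ventricles against 11.7 and 9.19 CPM in wild type ventricles, which fits the labels. Tissue markers fitted the labels too: of 10 cushion mesenchyme markers, 10 had higher values in cushion in wild type, 6 of them past the threshold, and of 9 ventricular cardiomyocyte markers 9 had lower values in cushion, 5 of them past it. Cushion libraries nevertheless held muscle RNA, with summed ventricular cardiomyocyte markers at 33351 and 31611 CPM in mutant cushions and 46142 and 27220 CPM in wild type cushions, against 92150 and 44078 CPM in mutant ventricles and 101376 and 43656 CPM in wild type ventricles. In bulk tissue, fewer cells of a type and less RNA per cell cannot be told apart. Nfatc1, a transcription factor gene of endocardium, was at 24.9 and 15.2 CPM in mutant cushions and 35.9 and 22.1 CPM in wild type cushions. On the first principal component mutant cushion replicate 2 was at -22.8, against -46.3 for mutant cushion replicate 1 and -54.9 and -46.3 for wild type cushions, and values without it stand beside the results that it moves.

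Cushions and ventricles differed in their BMP ligand RNA. In both genotypes Bmp2, Bmp4 and Bmp6 were higher in cushion than in ventricle, and in wild type Bmp10 was lower in cushion. No receptor gene passed in either genotype. With edgeR's quasi-likelihood test over all genes and a Benjamini-Hochberg adjusted p under 0.05, 3 of the 10 genes passed in mutants, against 9.42% of all genes tested, and 4 of the 10 in wild type, against 23.1% of all genes tested. With the replicate number as a block, 3 of the 6 ligands passed as higher and 1 as lower in each genotype, and again no receptor. Those higher were Bmp2, Bmp4 and Bmp6, and the lower one was Bmp7 in mutants and Bmp5 in wild type. Of all genes, 23.9% passed with the block in mutants and 41.4% in wild type. In wild type the 10 genes were thus called about as often as all genes. Libraries of the tissues did not overlap for 6 of the 10 genes in mutants, against 53.1% of all genes tested, and for 5 in wild type, against 65.3%. Calls by adjusted p that changed on leaving out single libraries are given below with each gene.

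**Figure D1:**
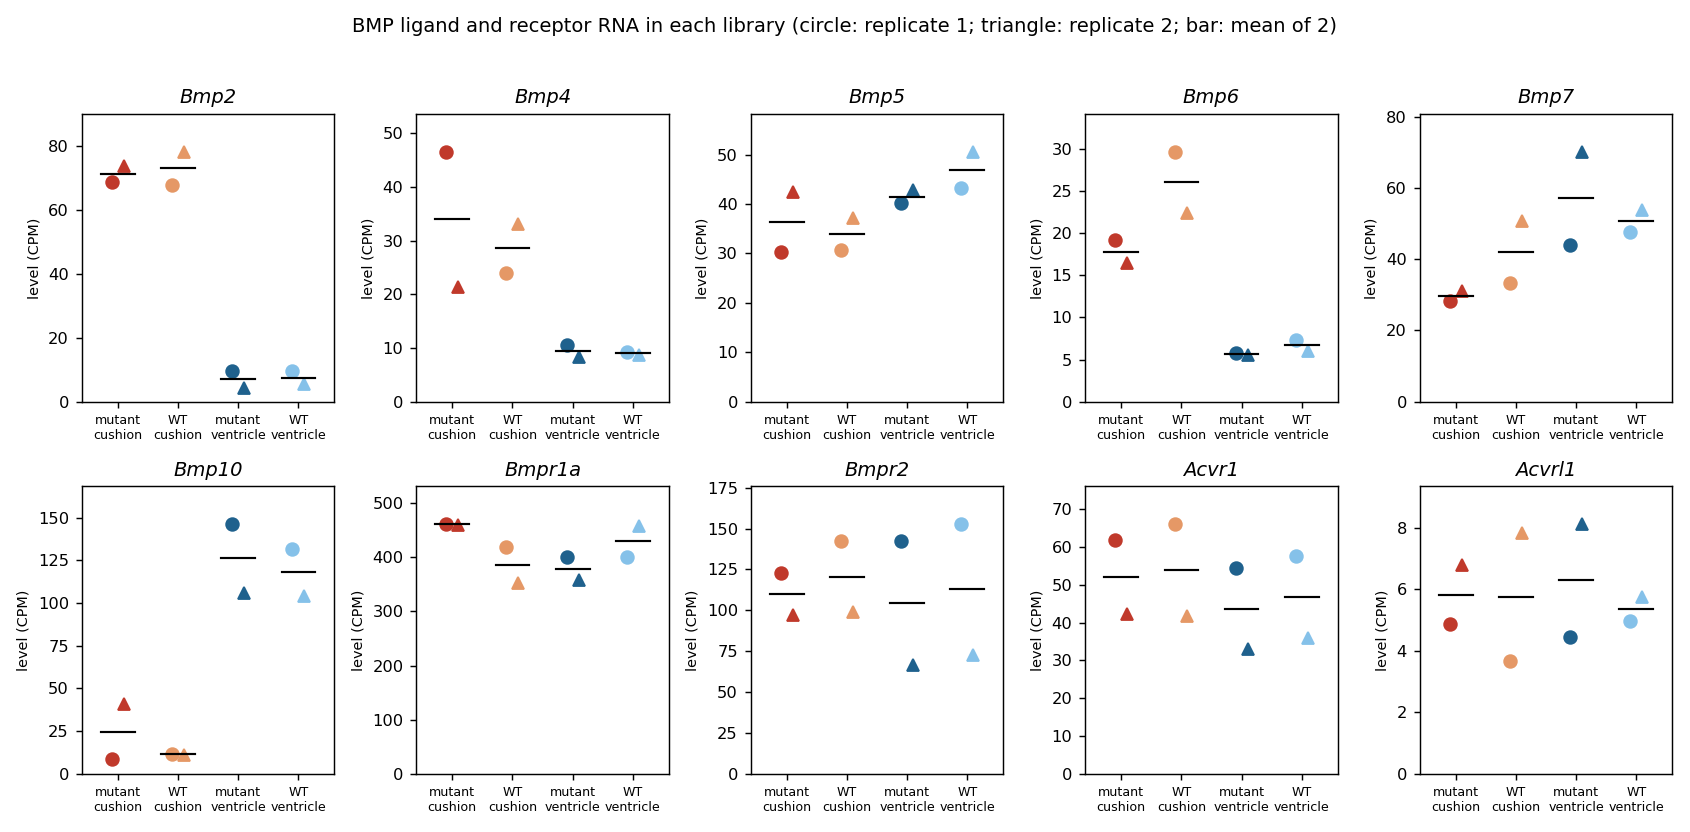
Level in CPM (vertical axis, from 0) of each of the 10 genes in mutant and wild type cushions and ventricles, with 1 symbol per library and a bar at the mean of 2 libraries. Bmp2, Bmp4 and Bmp6 lie high in cushions and low in ventricles, Bmp10 the other way round with mutant cushion replicate 2 at 40.9 CPM above the other cushion libraries, and Bmpr2 and Acvr1 are lower in replicate 2 of every group.

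Among the ligands, Bmp2 had the largest fold change between tissues in the cushion direction, while Bmp6, below, had the smaller p in both genotypes. It was at 68.8 and 73.7 CPM in mutant cushions, 67.9 and 78.3 CPM in wild type cushions, 9.68 and 4.33 CPM in mutant ventricles and 9.62 and 5.39 CPM in wild type ventricles. Every cushion library lay far above every ventricle library, and the genotypes overlapped within each tissue. The log2 fold change of cushion over ventricle was 3.34 ± 0.41 (SE) in mutants and 3.28 ± 0.41 (SE) in wild type, with adjusted p = 0.00552 and 0.00328 in edgeR. AV canal myocardium markers other than Bmp2 moved the same way, with a summed level of 219 and 193 CPM in mutant cushions and 251 and 236 CPM in wild type cushions, against 39.1 and 20.1 CPM in mutant ventricles and 38.4 and 22.8 CPM in wild type ventricles. These markers are Tbx2, Tbx3, Rspo3, Cacna1g and Hcn4, and their part in the Bmp2 values was not tested.

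Bmp6, which encodes a ligand of the same subgroup as BMP5 and BMP7, was at 19.2 and 16.4 CPM in mutant cushions, 29.7 and 22.4 CPM in wild type cushions, 5.72 and 5.54 CPM in mutant ventricles and 7.32 and 6.07 CPM in wild type ventricles. Here too the tissues did not overlap. Cushion over ventricle gave a log2 fold change of 1.66 ± 0.20 (SE) in mutants and 1.96 ± 0.20 (SE) in wild type, with adjusted p = 0.00281 and 8.24e-04. Bmp2 and Bmp6 passed in both genotypes under every alternative setting and without any single library. With the replicate block and an offset for transcript GC and length, the Bmp6 value was 1.60 in mutants and 1.47 in wild type. Across all genes tested, the tissue fold change ran with transcript GC content, with a Spearman rho of -0.162 in mutants and 0.385 in wild type. Bmp6 shares 224 exonic bases with Txndc5 on the opposite strand in GENCODE vM21, and the strand setting of the counts is not given in the sources used here.

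Bmp4 encodes the ligand closest to BMP2. Its level was 46.5 and 21.4 CPM in mutant cushions, 24.0 and 33.1 CPM in wild type cushions, 10.6 and 8.26 CPM in mutant ventricles and 9.19 and 8.76 CPM in wild type ventricles. All cushion libraries were above all ventricle libraries, and mutant cushions spread the most of the 4 groups. The log2 fold change of cushion over ventricle was 1.84 ± 0.36 (SE) in mutants and 1.67 ± 0.37 (SE) in wild type, with adjusted p = 0.0237 and 0.0194. The mutant call ended without mutant cushion replicate 1 (adjusted p = 0.0634) or mutant ventricle replicate 1 or 2 (0.0742 and 0.165), and the wild type call without wild type cushion replicate 2 (0.0958) or wild type ventricle replicate 1 or 2 (0.0669 and 0.116).

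Bmp10 had the highest level of the 6 ligands in ventricles. It was at 8.53 and 40.9 CPM in mutant cushions, 11.6 and 11.0 CPM in wild type cushions, 146 and 106 CPM in mutant ventricles and 132 and 104 CPM in wild type ventricles. The 2 wild type cushion libraries were close to each other, while the mutant cushion libraries differed 4.79-fold. In mutants cushion over ventricle gave -2.35 ± 0.67 (SE) on the log2 scale and did not pass (adjusted p = 0.0910), but it did without mutant cushion replicate 2, at -3.89 (adjusted p = 0.00299), and without mutant cushion replicate 1, at -1.63 (adjusted p = 0.0220). DESeq2 called it as well (0.0205). The wild type log2 fold change was -3.38 ± 0.70 (SE), with an adjusted p of 0.0226. The wild type call was lost with the replicate block (0.0580), with no filter on low counts (0.0572), and without wild type cushion replicate 1 or 2 (0.139 and 0.140), mutant ventricle replicate 2 (0.0505) or wild type ventricle replicate 2 (0.0548).

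The mutant cushion library with high Bmp10 was also high in other genes of trabecular myocardium. The summed level of Nppa, Irx3, Gja5, Sema3a and Cited1 was 312 and 1137 CPM in mutant cushions and 425 and 604 CPM in wild type cushions, against 2012 and 3221 CPM in mutant ventricles and 1968 and 2284 CPM in wild type ventricles, and none of the 5 was at 0 in any library. Nppa, which encodes atrial natriuretic peptide, was at 142 and 754 CPM in mutant cushions and 242 and 335 CPM in wild type cushions. It was the largest part of the sum in every library. Nppa and Bmp10 also stand in the list of atrial cardiomyocyte markers. Without Bmp10, that list summed to 2194 and 3389 CPM in mutant cushions and 2101 and 3333 CPM in wild type cushions. The part of these markers in the Bmp10 values was not tested. Some other markers were high in the same library. Without Ttn, the other 8 ventricular cardiomyocyte markers summed to 13131 and 17347 CPM in mutant cushions and 16633 and 14674 CPM in wild type cushions, and 4 of the 8 (Myl2, Myl3, Actc1 and Hey2) were highest there among cushion libraries. The 9 endocardium and endothelium markers summed to 1357 and 1690 CPM in mutant cushions and 1361 and 1434 CPM in wild type cushions. Emcn, an endothelial sialomucin gene, was at 41.7 and 112 CPM in mutant cushions and 38.0 and 47.9 CPM in wild type cushions. Of the 9, Npr3, Pecam1, Cdh5, Emcn and Plvap were highest in mutant cushion replicate 2 among cushion libraries. Nfatc1, Tek, Tie1 and Kdr were not, and Nfatc1 was lowest there, at 15.2 CPM. The markers beyond the trabecular list were chosen after their values were seen, and their part in the Bmp10 values was not tested either.

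**Figure D2:**
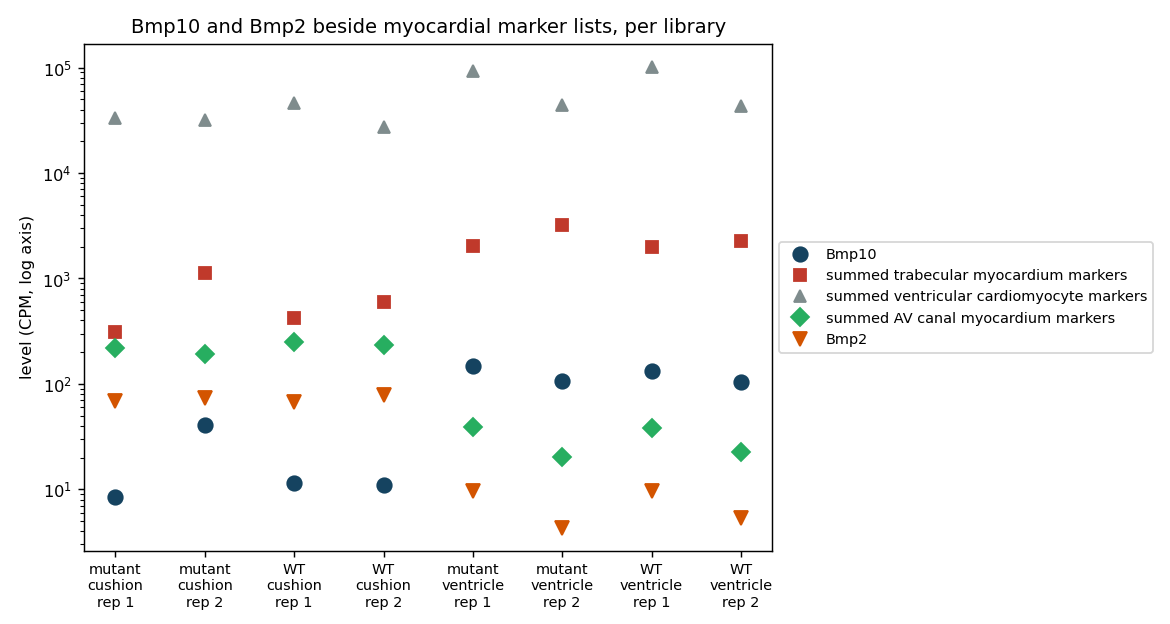
Level in CPM on a log axis, per library, of Bmp10 and Bmp2 and of the summed markers of trabecular myocardium (Bmp10 left out), ventricular cardiomyocytes and AV canal myocardium (Bmp2 left out). Bmp10 and the trabecular sum are both highest in mutant cushion replicate 2 among cushion libraries (40.9 and 1137 CPM), while Bmp2 and the AV canal sum are high in cushions and low in ventricles.

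Bmp5 and Bmp7 differed less between tissues. Bmp7, a ligand with broad expression in the embryonic heart, was at 28.3 and 31.0 CPM in mutant cushions, 33.3 and 50.7 CPM in wild type cushions, 44.0 and 70.1 CPM in mutant ventricles and 47.5 and 53.9 CPM in wild type ventricles. Cushion and ventricle did not overlap in mutants and overlapped in wild type. The log2 fold change was -0.94 ± 0.26 (SE) in mutants (adjusted p = 0.0602, and 4.22e-04 with the replicate block) and -0.27 ± 0.26 (SE) in wild type (adjusted p = 0.474). With the block and an offset for transcript GC and length, under which 31.9% of all genes passed in mutants and 41.4% in wild type, it passed in both genotypes, at -0.96 in mutants (adjusted p = 4.84e-05) and -0.68 in wild type (3.36e-04). In mutants it also passed in DESeq2 (0.00714) and without wild type cushion replicate 1 or 2 (0.0344 and 0.0364) or mutant ventricle replicate 1 (0.0238). The difference between these tissue effects was not past the threshold, at -0.67 ± 0.36 (SE) with an adjusted p of 0.463.

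Bmp5 was at 30.3 and 42.5 CPM in mutant cushions, 30.6 and 37.2 CPM in wild type cushions, 40.2 and 42.8 CPM in mutant ventricles and 43.3 and 50.6 CPM in wild type ventricles. Tissues overlapped in mutants and did not in wild type. Its log2 fold change was -0.19 ± 0.19 (SE) in mutants and -0.47 ± 0.19 (SE) in wild type, with adjusted p = 0.590 and 0.101, and in wild type it passed with the replicate block (0.00824). With the block and the GC and length offset it passed in mutants (0.0156) and not in wild type (0.102). An antisense gene, Gm26903, covers 1878 of its 4025 exonic bases, and reads of the pair cannot be told apart here.

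**Figure D3:**
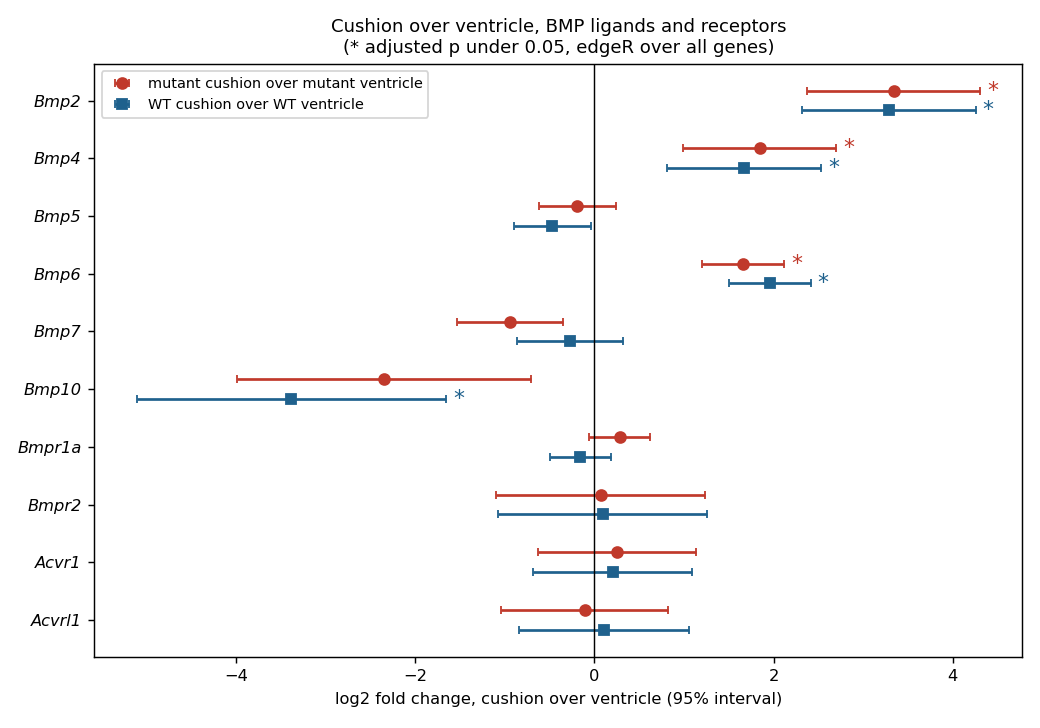
Log2 fold change of cushion over ventricle with its 95% interval for each gene, in mutants (circles) and in wild type (squares), from edgeR over all 8 libraries, with a star where the adjusted p is under 0.05. Bmp2, Bmp4 and Bmp6 lie above 0 with a star in both genotypes, Bmp10 lies below 0 with a star in wild type, and the 4 receptor genes have intervals that include 0.

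To compare levels between genes, CPM was divided by the length in kb of the longest GENCODE vM21 transcript. The 6 ligands then summed to similar levels in all groups, 64.8 and 64.4 CPM per kb in mutant cushions, 58.6 and 70.3 in wild type cushions, 64.6 and 60.7 in mutant ventricles and 62.8 and 58.6 in wild type ventricles, while their make-up differed by tissue. Bmp2, Bmp4 and Bmp6 together made up 72.9% and 55.4% of this sum in the mutant cushions and 66.5% and 63.0% in the wild type cushions, against 14.7% and 11.1% in the mutant ventricles and 14.6% and 12.7% in the wild type ventricles. Bmp10 made up 2.93% and 14.2% in mutant cushions and 4.40% and 3.50% in wild type cushions, against 50.5% and 38.9% in mutant ventricles and 46.7% and 39.6% in wild type ventricles. Bmp5 and Bmp7 together held 27.3% ± 4.45 in mutant cushions, 31.3% ± 3.08 in wild type cushions, 42.4% ± 10.7 in mutant ventricles and 43.1% ± 6.38 in wild type ventricles (SD, n = 2 each).

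Per length, the order of ligand levels in wild type cushions was Bmp2 at 20.6 ± 2.07, Bmp4 at 13.8 ± 3.13, Bmp7 at 11.4 ± 3.35, Bmp5 at 8.87 ± 1.21, Bmp6 at 7.25 ± 1.43 and Bmp10 at 2.52 ± 0.0877 CPM per kb (SD, n = 2). Of the neighbours in this order, Bmp4 and Bmp7, Bmp7 and Bmp5, and Bmp5 and Bmp6 lay within their spread. Within each library, Bmp4 was above Bmp7 and Bmp7 above Bmp5. In mutant cushions the order was Bmp2 (20.05 ± 0.977), Bmp4 (16.5 ± 8.61), Bmp5 (9.52 ± 2.27), Bmp7 (8.09 ± 0.529), Bmp10 (5.50 ± 5.10) and Bmp6 (4.95 ± 0.544 CPM per kb), and no pair of neighbours stood apart beyond its spread. Wild type ventricles had Bmp10 at 26.3 ± 4.33, Bmp7 at 13.8 ± 1.24, Bmp5 at 12.3 ± 1.35, Bmp4 at 4.35 ± 0.147, Bmp2 at 2.11 ± 0.843 and Bmp6 at 1.86 ± 0.246 CPM per kb. Bmp7 and Bmp5, and Bmp2 and Bmp6, lay within their spread there. In mutant cushions Bmp5 was above Bmp7 in both libraries, and in wild type ventricles Bmp7 was above Bmp5 in both. Mutant ventricles had the same order, with Bmp10 at 28.1 ± 6.37 and Bmp6 at 1.57 ± 0.0362 CPM per kb.

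**Figure D4:**
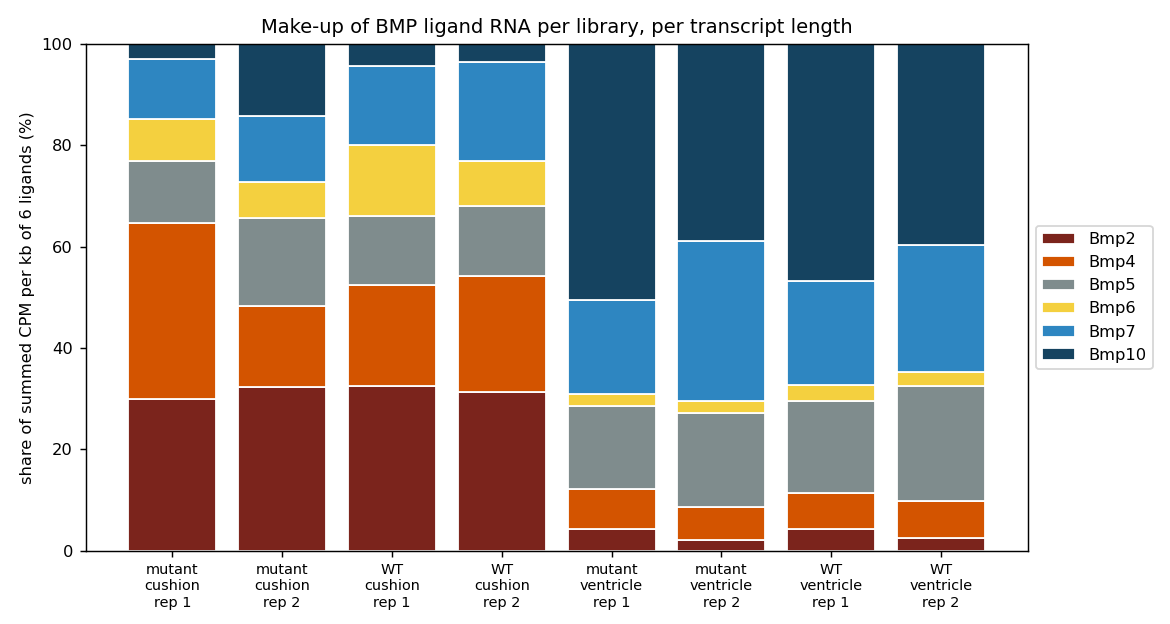
Share in percent (vertical axis) of each of the 6 ligand genes in their summed CPM per kb of transcript, with 1 bar per library. Bmp2, Bmp4 and Bmp6 together fill between 55.4% and 72.9% of the cushion bars and Bmp10 between 38.9% and 50.5% of the ventricle bars.

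RNA of the 4 receptor genes was present in both tissues, with group means close to each other. The intervals of Bmpr2, Acvr1 and Acvrl1, given below, leave room for larger differences. Bmpr1a, a type I receptor for BMP2 and BMP4, was the most abundant of the 10 genes per length in every group, with 77.4 ± 0.273 CPM per kb in mutant cushions, 64.7 ± 7.95 in wild type cushions, 63.6 ± 5.03 in mutant ventricles and 72.1 ± 6.87 in wild type ventricles (SD, n = 2). The next receptor in each group was Acvr1, a type I receptor for ligands such as BMP6 and BMP7, with 15.8 ± 4.23 CPM per kb in mutant cushions, 16.4 ± 5.27 in wild type cushions, 13.3 ± 4.64 in mutant ventricles and 14.2 ± 4.66 in wild type ventricles. Bmpr2, the type II receptor, followed with 8.51 ± 1.40, 9.34 ± 2.38, 8.09 ± 4.14 and 8.75 ± 4.39 CPM per kb in the same groups. It lay within the spread of Acvr1 in both ventricle groups, but below Acvr1 in every single library. Acvrl1, an endothelial type I receptor for BMP9 and BMP10, was lowest, at 1.60 ± 0.373, 1.58 ± 0.811, 1.73 ± 0.713 and 1.47 ± 0.152 CPM per kb in the same groups.

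As CPM, Bmpr1a was at 462 and 460 in mutant cushions, 419 and 352 in wild type cushions, 399.9 and 357 in mutant ventricles and 401 and 458 in wild type ventricles. The mutant cushions were above the mutant ventricles, and the wild type tissues overlapped. The log2 fold change of cushion over ventricle was 0.28 with a 95% interval from -0.06 to 0.62 in mutants and -0.16 with an interval from -0.50 to 0.18 in wild type. Bmpr2, Acvr1 and Acvrl1 had wider intervals. In wild type these ran from -1.07 to 1.26 for Bmpr2, from -0.68 to 1.09 for Acvr1 and from -0.84 to 1.05 for Acvrl1. With the replicate block the estimates were tighter, at 0.27 ± 0.11 (SE) in mutants and 0.21 ± 0.11 (SE) in wild type for Acvr1 (adjusted p = 0.0934 and 0.152) and 0.16 ± 0.18 (SE) in both genotypes for Bmpr2 (0.553 and 0.494).

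The spread of 3 of the 4 receptor genes followed the replicate number, while Bmpr1a was lower in replicate 2 in 3 groups and higher in wild type ventricles. Bmpr2 was at 123 and 97.0 CPM in mutant cushions, 142 and 98.8 CPM in wild type cushions, 142 and 66.6 CPM in mutant ventricles and 153 and 72.9 CPM in wild type ventricles, lower in replicate 2 in all 4 groups, by 1.26- to 2.13-fold. Acvr1 was at 61.9 and 42.2 CPM in mutant cushions, 66.2 and 41.6 CPM in wild type cushions, 54.5 and 32.9 CPM in mutant ventricles and 57.6 and 35.9 CPM in wild type ventricles, also lower in replicate 2 in all 4, by 1.47- to 1.66-fold. Acvrl1 had 4.86 and 6.77 CPM in mutant cushions, 3.66 and 7.83 CPM in wild type cushions, 4.45 and 8.13 CPM in mutant ventricles and 4.97 and 5.76 CPM in wild type ventricles, and was higher in replicate 2 in all 4.

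Of the ligands, Bmp5 and Bmp7 were also higher and Bmp6 lower in replicate 2 of all 4 groups. Such a shared direction was seen in 36.3% of all genes tested, 17.1% higher and 19.1% lower. The share of counts in Ttn, a long muscle transcript, moved with it, at 2.03% and 1.48% in mutant cushions, 2.96% and 1.38% in wild type cushions, 5.70% and 1.09% in mutant ventricles and 6.48% and 1.52% in wild type ventricles. Its part in the receptor values was not tested. Acvrl1 rests on the fewest reads, between 78 and 198 per library. Bmp4, Bmpr1a and Acvrl1 share 89, 290 and 127 exonic bases with the opposite-strand genes Gm15217, Gm17110 and Gm16031, and without the strand setting their counts are uncertain by the reads of those genes.

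The comparison of genotypes asks whether BMP ligand or receptor RNA differed between mutant and wild type embryos. None of the 10 genes passed in cushions or in ventricles, where 0% of all genes passed in edgeR in either tissue. Klf2, which was lower in mutants of both tissues at the levels given above, did not pass there either. The smallest edgeR adjusted p over all genes was 0.0903 in cushions and 0.269 in ventricles. A gene that did not pass is therefore not shown to be unchanged. With the replicate block none of the 10 passed, where 0.863% of all genes passed in cushions and 0.00669% in ventricles. DESeq2 called 25 genes in cushions and 1 in ventricles, and none of the 10. An unadjusted p under 0.05 was found in cushions for 11.4% of all genes tested and for 1 of the 10, Bmp6, and in ventricles for 2.29% of all genes and for none of the 10. The median log2 fold change of the 10 genes was -0.01 in cushions, against -0.01 over all genes tested, and -0.10 in ventricles, against -0.01.

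In cushions Bmp6 had the smallest p of the 10, with a log2 fold change of -0.55 ± 0.19 (SE), a 95% interval from -0.98 to -0.12 and an adjusted p of 0.435, or 0.0811 with the block. Both mutant cushions lay below both wild type cushions, at the levels given above. In ventricles its log2 fold change was -0.25 ± 0.20 (SE), with an interval from -0.71 to 0.21, again with both mutant libraries below both wild type libraries. With the block and the GC and length offset, under which 0.502% of all genes passed, the cushion value was -0.22 (adjusted p = 0.521). Across all genes tested, which are not independent replicates, the cushion fold change ran with transcript GC content, with a Spearman rho of -0.607. The GC content of the longest Bmp6 transcript is 57.8%, the highest of the 10.

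Bmp7 had a cushion log2 fold change of -0.50 ± 0.26 (SE), with an interval from -1.095 to 0.09 and an adjusted p of 0.473, and one of 0.17 ± 0.26 (SE) in ventricles. Bmpr1a ran the other way, with 0.26 ± 0.15 (SE) in cushions and -0.18 ± 0.15 (SE) in ventricles, both with groups that did not overlap. In ventricles these groups all but met, at 399.9 CPM in mutant replicate 1 and 400.6 CPM in wild type replicate 1. The log2 ratio of Bmpr1a there was -0.0026 between replicates 1 and -0.36 between replicates 2. The interaction values, the cushion effect minus the ventricle effect, were -0.67 for Bmp7 and 0.44 for Bmpr1a, with edgeR adjusted p = 0.463 and 0.431. With the block and the GC and length offset, Bmp7 was at -0.24 in cushions and 0.045 in ventricles (interaction -0.28), and Bmpr1a at 0.066 in cushions and -0.026 in ventricles (interaction 0.091). Groups did not overlap between genotypes for 3 of the 10 genes in cushions (Bmp6, Bmp7 and Bmpr1a), against 48.4% of all genes tested, and for 3 in ventricles (Bmp5, Bmp6 and Bmpr1a), against 27.7%.

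For Bmp2 the log2 fold change of mutant over wild type was -0.04 in cushions, with a 95% interval from -0.90 to 0.82, and -0.09 in ventricles, with an interval from -1.05 to 0.86. Bmp4 had 0.25 in cushions and differed in sign between replicate pairs, with 0.95 between replicates 1 and -0.63 between replicates 2. Bmp10 had 1.13 ± 0.67 (SE) in cushions, with an interval from -0.51 to 2.77, and -0.41 without mutant cushion replicate 2. Bmpr2 and Acvr1 had -0.13 and -0.05 in cushions and -0.11 and -0.10 in ventricles, and Acvrl1 had 0.01 and 0.23. For the interaction none of the 10 genes passed, where 0% of all genes passed in edgeR, and 11.9% of all genes but none of the 10 had an unadjusted p under 0.05.

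**Figure D5:**
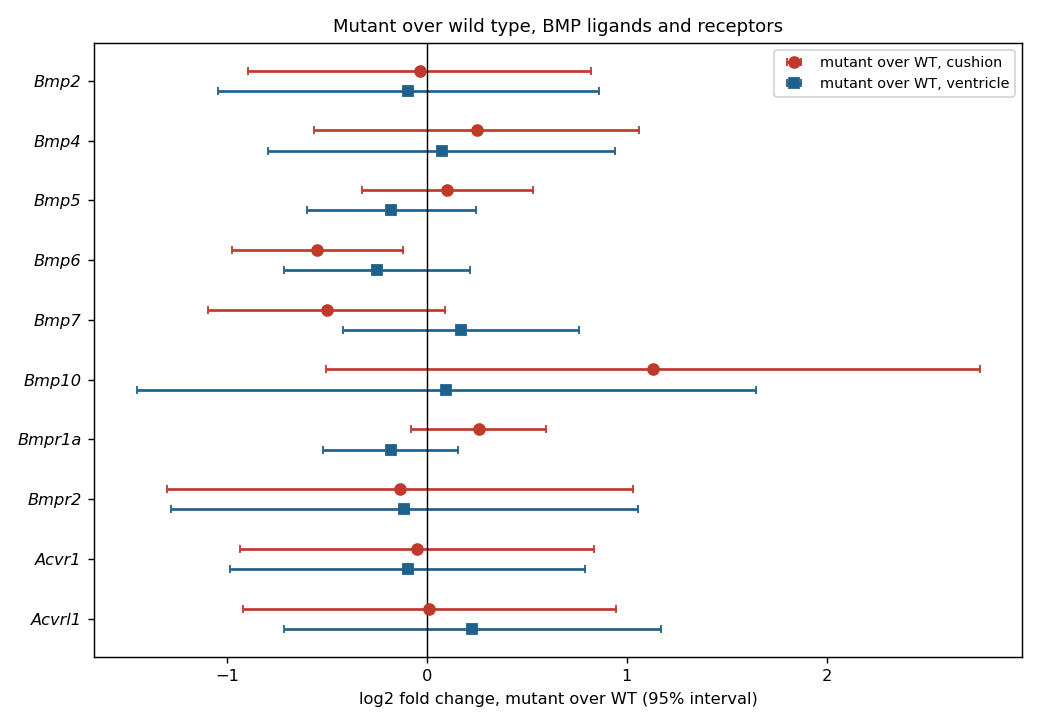
Log2 fold change of mutant over wild type with its 95% interval for each gene, in cushions (circles) and in ventricles (squares), from edgeR over all 8 libraries. The cushion interval of Bmp6 lies below 0 (-0.98 to -0.12) without passing the adjusted threshold, and the other intervals include 0.

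Other genes of the pathway were read from lists that hold none of the 10, and the counts stand against the 9.42% of all genes called in mutants and 23.1% in wild type. Response genes of BMP signalling were higher in cushion than in ventricle, with 12 of 15 passing in mutants (13 without mutant cushion replicate 2) and 13 of 15 in wild type, and a median log2 fold change of 1.44 in mutants and 1.56 in wild type, against 0.01 over all genes in both. Tbx2 and Tbx3 of this list also stand among the AV canal myocardium markers. Tbx2, a T-box repressor gene of the AV canal, had a log2 fold change of 3.18 in mutants and 3.77 in wild type, and Msx1, a homeobox gene of cushions, 3.84 and 3.90. The Id genes, which encode inhibitors of basic helix-loop-helix factors, had 1.44 in mutants and 1.87 in wild type for Id1, 1.31 and 2.21 for Id3, and 2.62 and 1.27 for Id4.

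Intracellular members of the pathway followed in part. Of 15 transducers and intracellular inhibitors, 6 passed as higher in cushion and 0 as lower in mutants, and 6 as higher and 1 as lower in wild type. Without mutant cushion replicate 2, 5 passed in mutants. The inhibitory SMAD genes Smad6 and Smad7, which also stand among the response genes, had 1.56 and 1.51 in mutants and 1.56 and 1.49 in wild type, and Smad9, a receptor-activated SMAD gene, 1.90 and 1.84. Skil, which encodes a repressor of SMAD signalling, had 1.197 in mutants and 0.99 in wild type.

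Secreted and membrane antagonists and modulators were higher in cushion too, with 6 of 18 tested passing in mutants (8 without mutant cushion replicate 2) and 8 of 18 in wild type, none lower. Fst, which encodes follistatin, had a log2 fold change of 2.16 in mutants and 2.84 in wild type, and Bmper, which encodes a BMP-binding protein, 3.02 and 3.02. Bambi, which encodes a decoy receptor and also stands among the response genes, had 0.85 and 1.12. Bmp1, which encodes a protease that cleaves the antagonist chordin and is not a BMP ligand, had 1.69 in wild type.

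Among 9 other receptors and co-receptors tested, 3 were lower in cushion and 0 higher in mutants, and 3 lower and 2 higher in wild type. The type I receptor gene Bmpr1b had -1.38 in mutants and -1.96 in wild type, Tgfbr3, which encodes betaglycan, -1.87 and -1.82, and the co-receptor gene Hfe2 -1.09 and -1.09. The co-receptor genes Rgma and Rgmb had 3.56 and 0.67 in wild type. Without mutant cushion replicate 2, 1 of the 9 passed in mutants. Of 13 other ligands 9 were tested, and 2 passed as higher in mutants, Bmp15 (2.50) and Gdf2 (2.29). Without mutant cushion replicate 2 these values were 2.50 and 2.33, and the call of Gdf2 ended. In wild type 5 passed as higher, Gdf2 (3.56), Bmp15 (1.995), Bmp3 (1.94), Gdf11 (0.71) and Gdf5. Gdf5 was at 0.657 and 0.594 CPM in wild type cushions and at 0 in both wild type ventricles, so its fitted fold change is not given.

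Between genotypes no gene of these lists passed in edgeR. In cushions 13 of 15 response genes had lower values in mutants, with a median log2 fold change of -0.25 against -0.01 over all genes tested, or 8 of 15 without mutant cushion replicate 2, and 8 of 15 transducers and intracellular inhibitors had higher values, or 13 of 15 without it. Marker lists moved beside the response genes, with no gene past the threshold without the block. Of 5 AV canal myocardium markers, which include Tbx2 and Tbx3, 4 were at lower values in mutants (median -0.68, or -0.53 without mutant cushion replicate 2). So were 9 of 10 cushion mesenchyme markers (median -0.33, and 5 of 10 without that library) and 7 of 9 ventricular cardiomyocyte markers (8 of 9 without it). At higher values were 6 of 7 epicardial markers, 6 of 6 leukocyte markers (5 of 6 without it) and 5 of 5 trabecular markers (1 of 5 without it). The atrial, endothelial and erythroid lists held values in both directions. Their part in the response gene values was not tested. Across all genes tested, the cushion fold change also ran with transcript GC content (Spearman rho -0.607). No count or median with the GC and length offset is given for these lists, and the part of GC content in them was not tested. Tbx2 was at 17.1 ± 0.0888 CPM in mutant cushions and 31.2 ± 6.13 CPM in wild type cushions, and Msx1 at 11.96 ± 1.13 CPM in mutant cushions and 20.7 ± 3.62 CPM in wild type cushions (SD, n = 2), with log2 fold changes of -0.87 and -0.79 and an adjusted p of 0.435 for both. These were -0.87 and -0.70 without mutant cushion replicate 2, and -0.44 and -0.49 with the block and the GC and length offset. In ventricles 9 of the 15 had lower values, with a median of -0.07. With the replicate block, 1 gene of the pathway lists passed in cushions, Bmp1, which fell by 0.62 on the log2 scale (adjusted p = 0.0252). That call ended with the GC and length offset added, at -0.29 (adjusted p = 0.239), and without the block and without mutant cushion replicate 2 the value was -0.31.

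Genes whose level over the 8 libraries was most like that of a ligand were ranked for the 3 ligands whose group means spanned more than 2 on the log2 CPM scale. The closest to Bmp2 were Has2as, the antisense partner of a hyaluronan synthase gene whose reads may include those of its partner, Rspo3, which encodes a WNT pathway activator, and Lrrc17, with Pearson r of 0.996, 0.995 and 0.995. For Bmp10 they were Ppara and Acadl, which encode a regulator and an enzyme of fatty acid oxidation, and Fig4, with r of 0.995, 0.991 and 0.993. For Bmp6 they were Slc27a3, Nfix and Acp2, with r of 0.996, 0.995 and 0.995. The 8 points fall into 2 tissues and both genes of a pair share each library, so these values only describe rank.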

How the data were processed

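Total RNA of AV cushions and ventricles was purified with a column kit and made into stranded libraries after ribosomal RNA removal, per the labels' protocols. The submitters' processing notes name Bowtie 0.12.7 and mouse build mm9. How reads were counted, against which annotation and with which strand setting is not given in the sources used here. Values deposited by the authors are unnormalized counts, 1 per row and library. All 8 deposited tables hold identical content and 1 was read, its columns assigned by sample title. Where a symbol had several rows, the one with the largest total was kept (Acvr1 had 3 rows, the smallest with 98.5% of the counts of the largest; the other 9 genes had 1). No gene coordinates in mm9 are given.

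The counts were analysed in R 4.3.3 with edgeR 4.0.16: TMM normalization, a filter on expression within groups that kept 99.97% of counts, 1 robust quasi-likelihood model of the 4 groups, and two-sided tests with Benjamini-Hochberg adjustment over 14940 symbols at 0.05. Standard errors and 95% intervals come from the same model. Replicates of a group differed by more than sampling noise (chi-square per degree of freedom 45.5 to 118.3). Alternatives were DESeq2 1.42.0, its size factors, no filter, summed rows, a replicate block, the block with a GC and length offset (14748 symbols with a GENCODE vM21 transcript), and leaving out each library; list counts without mutant cushion replicate 2 were added after seeing the data. The code was tested on simulated data.

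Groups share replicate numbers 1 and 2, whose meaning is not labelled. Across genes, deviations from the group mean correlated between same-numbered libraries for all 6 pairs of groups (Pearson r 0.341 to 0.522), so the pairing is one seen in the data and not in the design. The genes and lists were chosen with earlier results of these data known, so no p is adjusted over a list. Named are the 10 genes, Klf2 and Nfatc1, the genes of each pathway list that passed (or the 4 of smallest p where over 5 passed), up to 4 markers of a list in its order (other markers were named to show what a sum holds), and, for ligands whose group means spanned over 2 on the log2 CPM scale (prior count 2), the 3 most correlated genes of at least 5 CPM other than predicted genes. Id1, Id3, Tbx2 and Msx1 were named in further comparisons after their values were seen. A gene that this rule names is not reported here. Of 142 listed symbols 141 were in the table.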

Additional observations from a re-analysis of the deposited data

How the results depend on the processing

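Over 14 alternatives each, the cushion over ventricle differences of Bmp2 and Bmp6 kept their direction and their call in both genotypes, Bmp4 kept its direction and lost its call without 3 single libraries in each genotype, and no alternative called any of the 10 genes between genotypes or any receptor gene between tissues. Each group has only 2 libraries. Some genes also rest on few reads per library: Acvrl1 on 78 to 198, and in ventricles Bmp2 on 97 to 237 and Bmp6 on 115 to 140. The cause of the changes below was not tested.

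Between mutant and wild type cushions, 5 genes were called with no filter on low counts, 25 by DESeq2, 129 with the replicate block, 74 with the block and the GC and length offset, and 0 to 1 without single libraries, against 0 in edgeR. In ventricles 1 gene was called by DESeq2, 1 with the replicate block, 1 with the block and offset, and 0 to 1 without single libraries. For cushion over ventricle in mutants, 3572 genes were called with the block, 4701 with block and offset and 309 to 1301 without single libraries, against 1407. In wild type the counts were 6180, 6103 and 739 to 3498, against 3452. Of the 10 genes, 5 were called in mutants with block and offset (Bmp5 and Bmp7 added), against 3. In wild type 5 were called with block and offset (Bmp7 added), against 4. DESeq2 added Bmp7 and Bmp10 in mutants, and the share of all genes that it called between tissues is not given here. Calls that changed without single libraries are given above with each gene. Beside the calls of Bmp5, Bmp7 and Bmp10 given above, the block alone changed no call of the 10 genes.

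No value whose sign turned was called. Most were near 0, but Bmp10 between genotypes in cushions (1.13) and its interaction (1.03) turned without mutant cushion replicate 2. In cushions between genotypes, Acvrl1 was -0.005872 with summed rows, and with block and offset Bmp2 was 0.071 and Bmp5 -0.18. In ventricles Bmp4 was -0.026 and Bmpr2 0.057 with block and offset. The interaction of Bmpr2 was 0.003735 with the replicate block, and with block and offset that of Bmp5 was -0.16, of Bmp6 0.13 and of Acvrl1 0.285. For cushion over ventricle, Bmpr2 was -0.041 in mutants and Acvrl1 -0.41 in wild type with block and offset.

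Leaving out single libraries, the mutant over wild type value in cushions ran from -0.15 to 0.070 for Bmp2, from -0.42 to 0.70 for Bmp4, from -0.16 to 0.33 for Bmp5, from -0.41 to 1.85 for Bmp10, from -0.37 to 0.14 for Bmpr2, from -0.35 to 0.31 for Acvr1 and from -0.44 to 0.67 for Acvrl1. In ventricles it ran from -0.79 to 0.41 for Bmp2, from -0.11 to 0.24 for Bmp4, from -0.21 to 0.48 for Bmp7, from -0.15 to 0.31 for Bmp10, from -0.76 to 0.55 for Bmpr2, from -0.50 to 0.31 for Acvr1 and from -0.27 to 0.61 for Acvrl1. The interaction ran from -0.45 to 0.75 for Bmp2, from -0.49 to 0.63 for Bmp4, from -0.50 to 1.76 for Bmp10, from -0.68 to 0.62 for Bmpr2, from -0.37 to 0.45 for Acvr1 and from -0.68 to 0.44 for Acvrl1. Cushion over ventricle in mutants ran from -0.46 to 0.034 for Bmp5, from -0.38 to 0.68 for Bmpr2, from -0.069 to 0.62 for Acvr1 and from -0.51 to 0.38 for Acvrl1. In wild type it ran from -0.34 to 0.72 for Bmpr2, from -0.18 to 0.58 for Acvr1 and from -0.55 to 0.54 for Acvrl1.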

Other observations

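Among BMP and GDF ligands outside the 10 genes, 2 that are known mainly from other organs were higher in cushion in both genotypes. Gdf2, which encodes BMP9, a circulating ligand of the Acvrl1 receptor known mainly from liver, was at 0.883 and 0.825 CPM in mutant cushions and 2.58 and 1.94 CPM in wild type cushions, against 0.204 and 0.134 CPM in mutant ventricles and 0.214 and 0.158 CPM in wild type ventricles. With 1 CPM at 18.7 to 25.3 reads, the Gdf2 values rest on few reads, above all in ventricles, and its fold changes are uncertain. Its call in mutants ended without mutant cushion replicate 2, where the log2 fold change of cushion over ventricle was 2.33. The genotype groups of Gdf2 did not overlap in cushions, as was so for 48.4% of all genes tested. The log2 fold change of mutant over wild type there was -1.40 ± 0.36 (SE) and did not pass in edgeR (adjusted p = 0.435, and 0.0738 with the replicate block). It was -1.29 with the block and the GC and length offset (adjusted p = 0.131), and -1.35 without mutant cushion replicate 2. Bmp15, known from the oocyte, was at 6.43 and 6.43 CPM in mutant cushions and 7.04 and 5.30 CPM in wild type cushions, against 1.18 and 1.07 CPM in mutant ventricles and 2.03 and 1.06 CPM in wild type ventricles, and was higher in cushion with a log2 fold change of 2.50 in mutants and 1.995 in wild type.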
